A study of Danio rerio with 6 samples.

Results

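The genes of the muscle sarcomere and of muscle calcium handling were followed through 6 RNA-seq libraries of whole zebrafish (Danio rerio) embryos exposed to pentachlorophenol (PCP), a biocide that uncouples mitochondrial respiration. They were taken by name, from the stems of the myosin heavy and light chains, myosin-binding proteins, myomesins, myozenins, troponins, tropomyosins, titins, nebulin, alpha-actinins, csrp3, parvalbumins, creatine kinases, ryanodine receptors and calsequestrins, with 1 cardiac light chain left out. This rule took in 80 of the 21228 entries in the table. Embryos of the wild-type Tuebingen strain were kept from about 1 h post fertilization (hpf) in the DMSO vehicle alone (10C and 24C), in 5 μg/l PCP (10L and 24L) or in 200 μg/l PCP (10H and 24H), all with the same share of DMSO, and were collected at 10 or 24 hpf. The pooled embryos of each group gave 1 library, so no group had a replicate.

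A sarcomere is built from thick filaments of myosin, thin filaments of actin, tropomyosin and troponin, the Z-disc that anchors the thin filaments, and titin, which spans from the Z-disc to the M-band. Contraction starts when ryanodine receptors release calcium from the sarcoplasmic reticulum onto troponin C, and parvalbumin, a soluble calcium buffer of fast fibres in fish, speeds relaxation. Slow fibres of the zebrafish trunk arise first, from cells next to the notochord, and fast fibres follow in the deeper somite, each with its own set of myosin and troponin genes. The 80 genes were therefore sorted by textbook knowledge into 23 of fast skeletal muscle, 12 of slow skeletal muscle, 12 of the heart, 9 of striated muscle with no single type and 13 of non-muscle cells or smooth muscle. Another 5 parvalbumins (pvalb5 to pvalb9) were set apart after their values had been seen, because their tissue was not certain, and 6 genes stayed unsorted (myl2, myl10, ryr2, tnni3k, tnnt2d and tnnt2e).

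Levels are normalized counts, the reads of a gene multiplied by a scaling factor of the library, and no value was corrected for transcript length, so levels were compared between libraries and not between genes. The libraries held between 47409208 and 59864868 reads. A fold change (FC) is the ratio of normalized counts, treated over control, given with a 95% Clopper-Pearson interval that covers counting error only. A gene rose or fell where it changed more than 2-fold with a Benjamini-Hochberg adjusted p under 0.05 over 21217 genes. The test was an exact binomial test, two-sided, on the reads of a pair of libraries. That test compares 2 libraries and not 2 conditions, since it holds no spread between pools of embryos. In whole embryos, fewer fibres of a type and less RNA in each fibre cannot be told apart.

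Between 10 and 24 hpf in the vehicle, 67 of the 80 genes rose and 3 fell, where 28.4% of all genes tested rose and 18.0% fell. All 23 fast genes rose, with a median of 7.36 on the log2 scale after 1 was added to each normalized count, against 0.07 over the 17158 genes with at least 10 reads on average. The myosin heavy chain gene myhz1 had a normalized count of 17.8 in 10C and 66343 in 24C (FC 3719). The fast regulatory light chain gene mylz2, named mylpfa in RefSeq, went from 106 to 177162 (FC 1672). Both were low at 10 hpf and high at 24 hpf. Of the 12 slow genes 9 rose, with the slow myosin heavy chain smyhc1 at 189 and 17364 (FC 91.9) and the troponin I gene tnni1al, sorted as slow by its name and called tnni4b.2 in RefSeq, at 2.10 and 3527 (FC 1681). The Z-disc gene myoz2b had 0 reads in 10C and 357 in 24C, at least 121-fold higher if 3 counts are taken as the floor of each library. The tropomyosin gene tpm3 was already at 19116 in 10C and was at 26849 in 24C. Of the cardiac genes 11 of 12 rose, among them casq2, which encodes the calsequestrin that stores calcium in the sarcoplasmic reticulum (FC 95.9), and the cardiac troponin T gene tnnt2a (FC 154). The 3 genes that fell were mybpc1, csrp3 and myl12. Of the 13 non-muscle or smooth genes 5 rose (38.5%), beside the 28.4% of all genes tested.

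**Figure D1:**
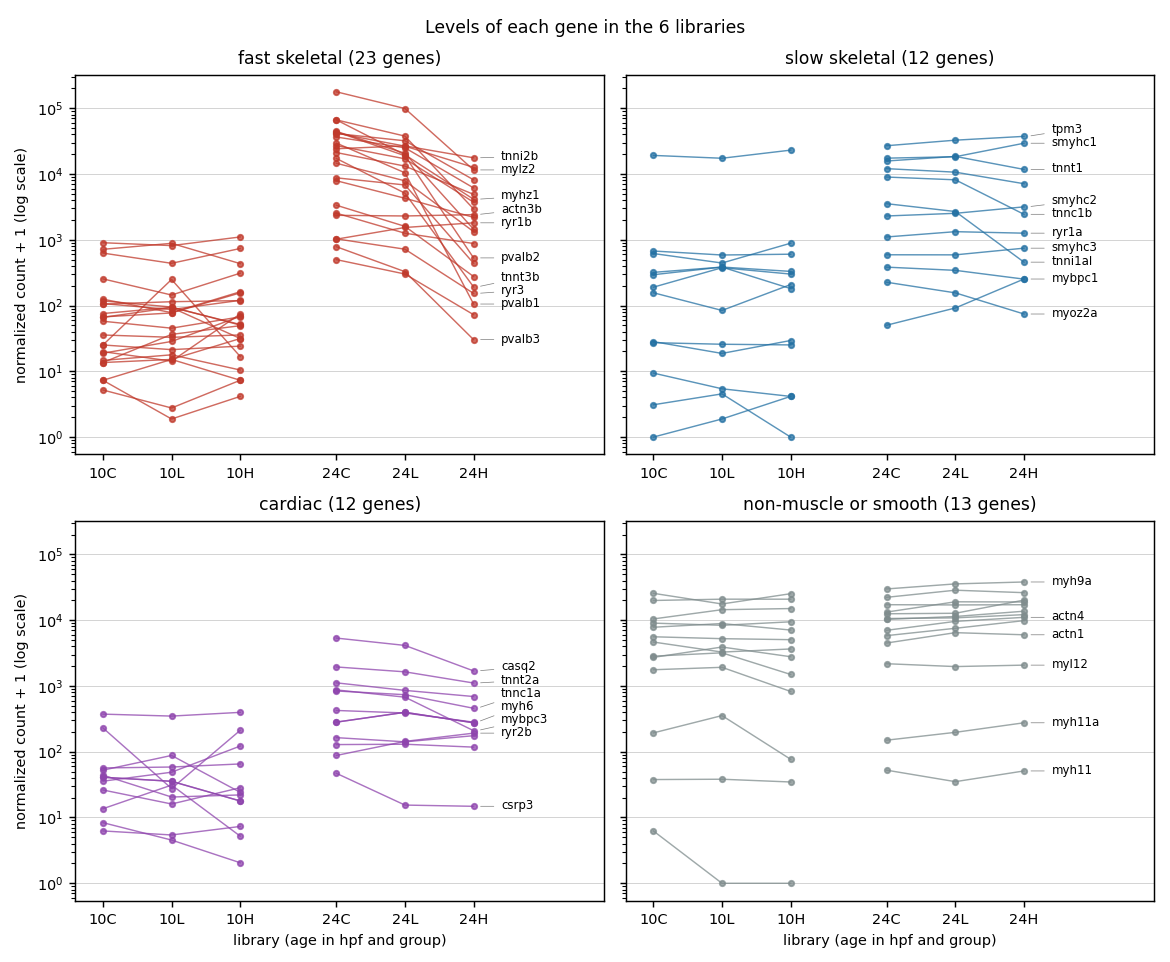
Normalized count plus 1 (log scale) of each gene in the 6 libraries, in 4 panels by fibre or tissue class, with 1 line per gene and age. At 24 hpf 20 of the 23 fast lines step down from 24C to 24L and again to 24H, while the 13 non-muscle or smooth lines stay within 2-fold of 24C.

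At 24 hpf 200 μg/l PCP was accompanied by low levels of most fast genes, while the slow myosins, the titins and the non-muscle myosins kept within 2-fold of the control. Of the 80 genes, 32 fell and 2 rose in 24H against 24C, where 16.0% of all genes tested fell and 11.7% rose. The fast genes made up 20 of the 32, out of 23 in that class, and none of the 13 non-muscle or smooth genes fell. The median log2 change was -2.86 for the fast genes, -0.12 for the slow, -0.64 for the cardiac, -0.22 for the other striated and 0.41 for the non-muscle or smooth genes, beside -0.03 over the 17210 genes with at least 10 reads on average. All 80 genes together took 1.93% of the reads in 24C, 1.34% in 24L and 0.795% in 24H. The largest adjusted p among the 34 genes was 4.42e-05 by the exact binomial test, for csrp3. With edgeR's exact test and an assumed biological coefficient of variation (BCV) of 0.4 between pools, 16 genes fell and 0 rose, and 11 of the 16 were fast genes.

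**Figure D2:**
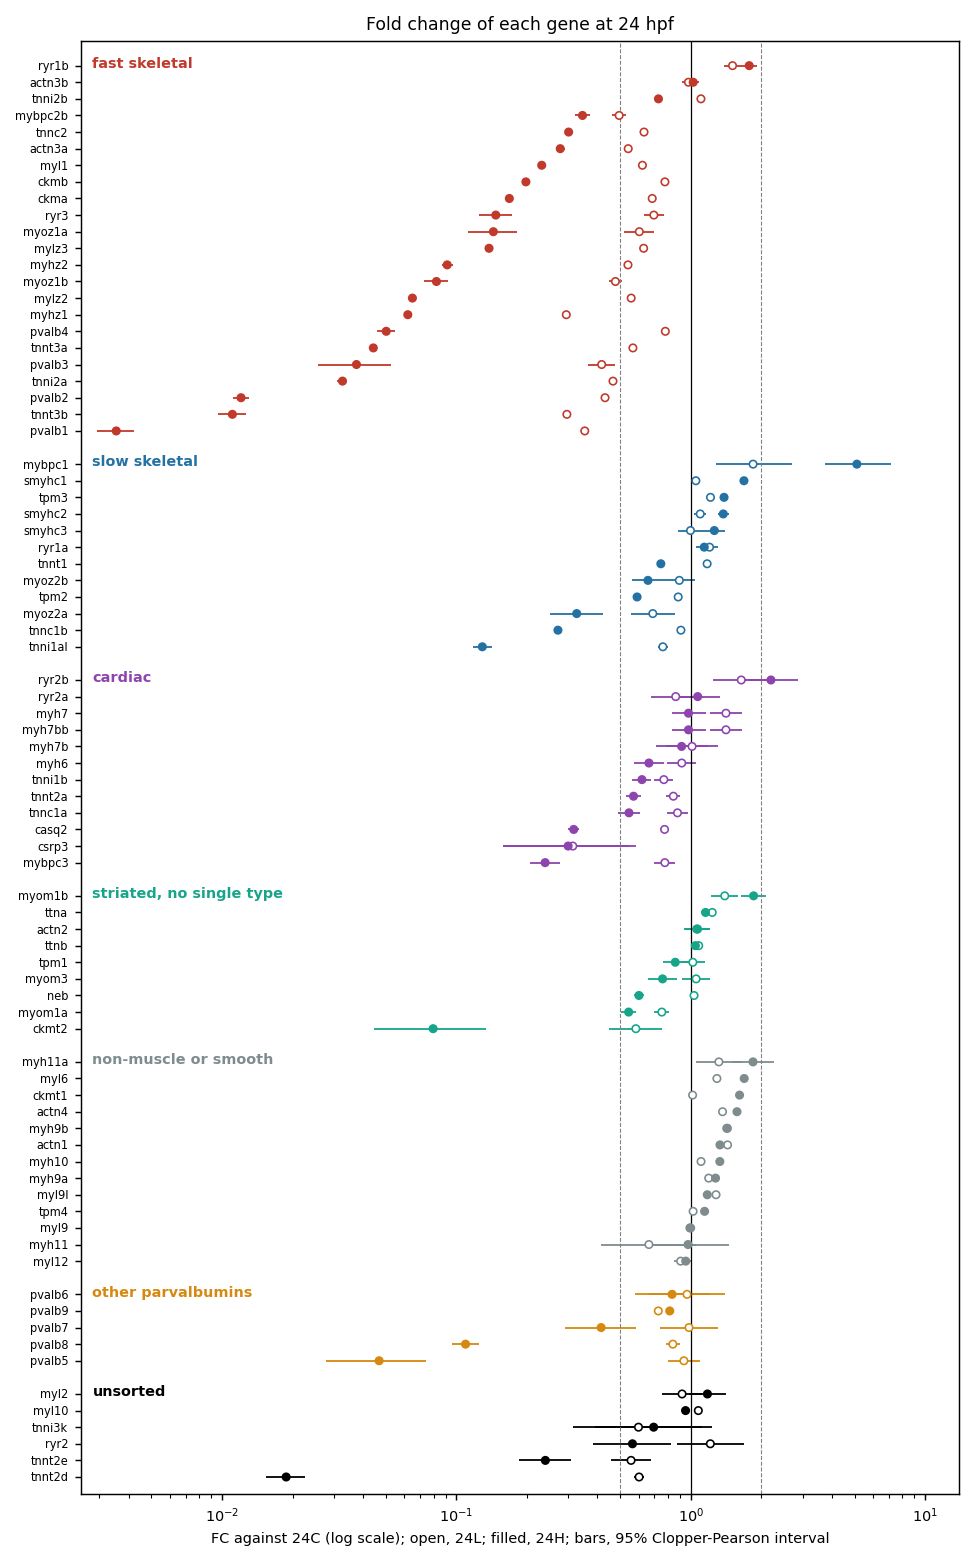
FC against 24C (log scale) of all 80 genes at 24 hpf, sorted within each class, with open points for 24L, filled points for 24H, bars for the 95% Clopper-Pearson interval and dashed lines at 2-fold. Of the 23 fast genes 20 have their filled point below the lower dashed line, and pvalb1 lies furthest left at 0.00354.

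Among the thick filament genes, the fast heavy chains fell and the slow ones did not. The myhz1 count was 66343 in 24C, 19533 in 24L and 4117 in 24H, and FC in 24H was 0.0621 (95% interval 0.0602 to 0.0639). That of myhz2, a second fast heavy chain gene, was 14537 in 24C, 7843 in 24L and 1328 in 24H (FC 0.0914). Both were highest in the vehicle, lower in 24L and lowest in 24H. The smyhc1 count was 17364 in 24C, 18254 in 24L and 29279.6 in 24H, with the highest value in 24H and an FC of 1.69 (1.65 to 1.72) that stayed short of the 2-fold threshold. The neighbouring copies smyhc2 and smyhc3 had FC of 1.38 and 1.26. The 3 slow genes lie side by side in the RefSeq annotation (assembly GRCz12tu), and they, like the fast myhz genes, are near-identical copies between which reads may have been split, so their sums were compared as well. The sum of smyhc1 to smyhc3 divided by the sum of myhz1 and myhz2 was 0.250 in 24C, 0.780 in 24L and 6.09 in 24H. Without length correction these ratios are not ratios of molecules, but the ratio in 24H was 24.3 times that in 24C and the ratio in 24L 3.12 times.

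All 3 light chain genes of fast muscle fell as well, where 16.0% of all genes tested fell in 24H. The mylz2 count was 106, 85.8 and 119 in 10C, 10L and 10H, and 177162, 98656 and 11502 in 24C, 24L and 24H. This was the largest normalized count of any member in 24C, not corrected for length, and FC in 24H was 0.0649 (0.0638 to 0.0661). The fast light chain genes mylz3 and myl1, which encode alkali light chains, had FC of 0.138 and 0.231. None of the non-muscle or smooth light chain genes (myl6, myl9, myl9l and myl12) passed, with FC between 0.952 and 1.69. The unsorted light chain gene myl10 was at 16127 in 24C, 17369.7 in 24L and 15322 in 24H (FC 0.950).

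The 3 myosin-binding protein genes went different ways. The fast gene mybpc2b was at 2534 in 24C, 1254 in 24L and 875 in 24H (FC 0.345), and the cardiac gene mybpc3 was at 869 in 24C, 673 in 24L and 208 in 24H (FC 0.239). The slow gene mybpc1 was at 318, 383 and 179.7 in 10C, 10L and 10H, and 49.2, 90.7 and 252 in 24C, 24L and 24H. It was thus lowest in 24C of all 6 libraries, and rose in 24H with an FC of 5.11 (3.74 to 7.14, adjusted p 1.72e-33 by the exact binomial test). Its level in 24H lay between those of 24C and 10C, and was 1.40 times that of 10H, the library of the same dose.

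Troponins, which make the thin filament sensitive to calcium, fell in 8 of 13 cases, and all 13 had an FC below 1. Of all 21217 genes tested 16.0% fell in 24H, and 10859 had an FC below 1. The fast troponin T gene tnnt3b was at 104, 113 and 118 in 10C, 10L and 10H, and 17199.6, 5092 and 190.5 in 24C, 24L and 24H (FC in 24H 0.0111, 0.00965 to 0.0126). The fast troponin T gene tnnt3a was at 66324 in 24C, 37567 in 24L and 2933 in 24H (FC 0.0442). Both were highest in 24C and lowest of the 24 hpf libraries in 24H, where tnnt3b was within 2-fold of its level in 10H. Of the fast troponin I entries 1 fell. The entry tnni2a fell from 44264 in 24C to 1446 in 24H (FC 0.0327), whereas tnni2b was at 24152 in 24C, 26685 in 24L and 17583 in 24H (FC 0.728). Both names lack an accession in the table and may gather several neighbouring genes whose names were cut at a full stop. The fast troponin C gene tnnc2 was at 41834 in 24C, 26427 in 24L and 12601 in 24H (FC 0.301).

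In the slow set 2 of 3 troponin genes fell in 24H, and none of the 3 slow myosins did, where 16.0% of all genes tested fell. The tnni1al count was 3527 in 24C, 2681 in 24L and 455 in 24H (FC 0.129, 0.117 to 0.141) and that of the slow troponin C gene tnnc1b was 8965 in 24C, 8137 in 24L and 2431 in 24H (FC 0.271). The entry tnnt1, whose accession carries the name tnnt2c in RefSeq, was at 15718 in 24C, 18459.7 in 24L and 11713 in 24H (FC 0.745). Of the genes sorted as slow, tnni1al and tnnc1b thus fell, while tnnt1 and the 3 heavy chains stayed within 2-fold. The names of tnni1al and tnnt1 differ in RefSeq, so their place in the slow class is less sure. The ratio of tnnt1 to the sum of tnnt3a and tnnt3b was 0.188 in 24C, 0.433 in 24L and 3.75 in 24H. In the remainder of the slow class the Z-disc gene myoz2a fell (FC 0.326), while the tropomyosin genes tpm2 and tpm3 had FC of 0.590 and 1.39. The largest normalized count of the slow class in 24C was that of tpm3, at 26849 in 24C, 32585 in 24L and 37231 in 24H. Unlike smyhc1, tpm3 was already high before muscle fibres form, with a count of 19116 in 10C. Between 10C and 24C its FC was 1.40, beside 91.9 for smyhc1, so its place in the slow class is less sure too. The same holds for mybpc1 and ryr1a, which were at 318 and 673 in 10C. Between 10C and 24C their FC were 0.155 and 1.64.

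An unsorted troponin T gene gave an FC in the range of the fast ones. The tnnt2d count was 60.9, 51.3 and 24.2 in 10C, 10L and 10H, and 5002, 3011 and 93.9 in 24C, 24L and 24H (FC in 24H 0.0188, 0.0154 to 0.0227). It was high in 24C and 24L only. Its 24H level was within 2-fold of that in 10C but more than 2-fold above that in 10H. The related tnnt2e was at 298 in 24C, 166 in 24L and 71.5 in 24H (FC 0.240). In contrast the cardiac troponin T gene tnnt2a was at 1940.4 in 24C, 1636 in 24L and 1106 in 24H (FC 0.570), which did not pass the 2-fold threshold.

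The titin and myomesin genes stayed within 2-fold of the control. Titin is the giant spring of the sarcomere, and the 2 titin genes had FC of 1.16 (ttna) and 1.05 (ttnb) in 24H, with ttnb at 5456 in 24C, 5899.6 in 24L and 5709 in 24H. None of the 5 titin and myomesin genes passed, and neither did any of the 5 tropomyosin and nebulin genes, with neb at 4279 in 24C, 4419 in 24L and 2572 in 24H (FC 0.601). At the Z-disc, 5 of 10 genes fell, where 16.0% of all genes tested fell and 11.7% rose in 24H. The 5 were the fast genes actn3a (FC 0.277), myoz1a (0.144) and myoz1b (0.0822), the slow gene myoz2a and the cardiac gene csrp3. The second fast alpha-actinin gene, actn3b, had 2348 in 24C, 2294 in 24L and 2405 in 24H (FC 1.02), so 1 of the pair passed and the other did not. The general striated alpha-actinin gene actn2 had an FC of 1.07.

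**Figure D3:**
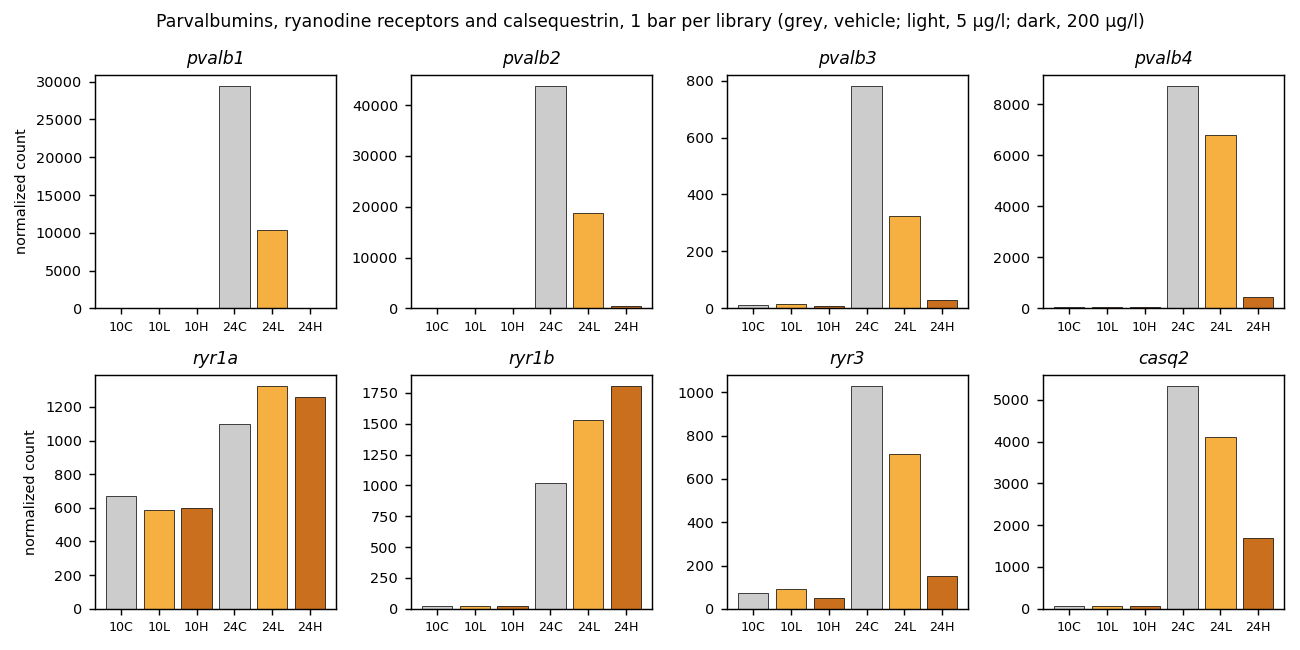
Normalized counts (linear scale, from 0) of 4 parvalbumin genes, 3 ryanodine receptor genes and casq2, with 1 bar per library and its own axis in each panel. The bars of pvalb1 to pvalb4, ryr3 and casq2 are tallest in 24C, whereas that of ryr1b is tallest in 24H.

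The calcium genes are taken in the order of buffering, release and storage. Parvalbumins had the lowest FC of any role, with 7 of 9 fallen in 24H and a median log2 change of -4.31. Of all genes tested 16.0% fell in 24H. The pvalb1 count was 18.9, 13.3 and 73.6 in 10C, 10L and 10H, and 29468, 10401 and 104 in 24C, 24L and 24H. Its 27548 reads in 24C and 121 in 24H gave an FC of 0.00354 (0.00294 to 0.00423), the lowest among the 80 genes. The pvalb2 count was 12.6, 35.4 and 48.4 in 10C, 10L and 10H, and 43819.9, 18874 and 528 in 24C, 24L and 24H (FC in 24H 0.0121, 0.0111 to 0.0131). For both genes 24L lay between 24C and 24H, and in 24H pvalb1 was within 2-fold of its level in 10H. The pvalb3 count was 13.6, 16.8 and 9.46 in 10C, 10L and 10H, and 782, 326 and 29.3 in 24C, 24L and 24H (FC 0.0375), and the pvalb4 count was 56.7, 44.2 and 66.2 in 10C, 10L and 10H, and 8722, 6794 and 438 in 24C, 24L and 24H (FC 0.0502). In both the 24H level was above that of 10H and far below that of 24C. Of the 5 other parvalbumins, pvalb8 was at 2087 in 24C, 1750.0 in 24L and 228 in 24H (FC 0.109) and pvalb5 at 349.8 in 24C, 327 in 24L and 16.4 in 24H (FC 0.0468), and pvalb7 fell as well (FC 0.415). The remaining genes pvalb9, at 23889 in 24C, 17366 in 24L and 19431 in 24H, and pvalb6 had FC of 0.813 and 0.832.

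Of the 9 parvalbumin genes 7 lie in 2 runs. In the RefSeq order pvalb8 and pvalb4 are neighbours, followed after 1 other gene by pvalb1 and pvalb5, and all 4 fell in 24H. A second run on another chromosome holds pvalb9, pvalb3 and, after 1 other gene, pvalb2. There pvalb3 and pvalb2 fell, while pvalb9 beside pvalb3 had an FC of 0.813.

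For calcium release, 1 of the 6 ryanodine receptor entries fell and 1 rose, where 16.0% of all genes tested fell and 11.7% rose. The ryr1b gene, which encodes the receptor of fast fibres, was at 24.1, 20.3 and 23.1 in 10C, 10L and 10H, and 1017, 1533 and 1806 in 24C, 24L and 24H (FC in 24H 1.78, 1.64 to 1.92). It had its highest level in 24H, as actn3b did among the fast genes, though it did not pass the 2-fold threshold. The ryr3 gene, which encodes a second receptor of embryonic fast muscle, was at 74.5, 92.9 and 50.5 in 10C, 10L and 10H, and 1030.1, 717 and 152 in 24C, 24L and 24H and fell (FC 0.147, 0.125 to 0.173, adjusted p 1.91e-170 by the exact binomial test). The ratio of ryr1b to ryr3 was 0.988 in 24C, 2.14 in 24L and 11.9 in 24H, and its value in 24H was 12.1 times that in 24C. The slow receptor gene ryr1a was at 673, 585 and 601 in 10C, 10L and 10H, and 1101, 1324 and 1256 in 24C, 24L and 24H (FC in 24H 1.14), with little difference between the libraries of either age. Among the receptors sorted as cardiac, ryr2b rose in 24H (FC 2.20, 1.70 to 2.87, adjusted p 7.61e-10 by the exact binomial test). Its count was 25.2, 15.0 and 27.3 in 10C, 10L and 10H, and 86.6, 142 and 190.5 in 24C, 24L and 24H. The ryr2a gene was sorted with it, and its tissue in these embryos was not tested. The ryr2a gene was at 34.6, 47.8 and 121 in 10C, 10L and 10H, and 163, 140.2 and 174 in 24C, 24L and 24H (FC in 24H 1.07), and the unsorted entry ryr2 was at 15.7, 0.885 and 22.1 in 10C, 10L and 10H, and 74.9, 90.7 and 42.2 in 24C, 24L and 24H (FC 0.564). For storage, casq2 was at 55.6, 57.5 and 64.1 in 10C, 10L and 10H, and 5333, 4124 and 1689 in 24C, 24L and 24H and fell (FC 0.317, 0.300 to 0.334), with 24L between 24C and 24H.

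Creatine kinases buffer ATP in muscle. Both cytosolic muscle genes fell, ckma at 36433 in 24C, 24947 in 24L and 6129 in 24H (FC 0.168) and ckmb at 41115 in 24C, 31892 in 24L and 8139 in 24H (FC 0.198). The mitochondrial gene of striated muscle, ckmt2, was at 173 in 24C, 101 in 24L and 13.8 in 24H (FC 0.0796, 0.0444 to 0.133). The mitochondrial gene ckmt1, which is not bound to muscle, was at 12481 in 24C, 12707 in 24L and 20157 in 24H (FC 1.61).

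Of the 12 genes sorted as cardiac, 3 fell in 24H (mybpc3, casq2 and csrp3) and ryr2b rose. These were 25% and 8.33% of the class, where 16.0% of all genes tested fell and 11.7% rose. Whether the casq2 reads came from the heart or from skeletal muscle was not tested, so its place in the class is less sure. The atrial myosin heavy chain gene myh6 was at 423 in 24C, 387 in 24L and 280.1 in 24H (FC 0.663) and the cardiac troponin genes tnni1b and tnnc1a had FC of 0.619 and 0.545, none past the 2-fold threshold. The csrp3 gene, which encodes a muscle LIM protein, had only 43 reads in 24C and 16 in 24H, and its interval was accordingly wide (0.158 to 0.543). It was at 229 in 10C and lower in 24C (FC 0.201), so its place in the cardiac class is less sure too. Reads of myh7 and myh7bb were identical in all 6 libraries, and the 2 entries appear to count the same reads. The ventricular myosin gene vmhc, a heart marker outside the name rule, had an FC of 0.886, and the atrial natriuretic peptide gene nppa fell (FC 0.0570). In the non-muscle or smooth class myh9a had the largest normalized count in 24C, at 29784 in 24C, 35517 in 24L and 37991 in 24H (FC 1.28), and 10 of the 13 genes had an FC above 1, up to 1.84 for myh11a. The entry myh11, which matches the same RefSeq gene as myh11a, had an FC of 0.973. The entry tpm4 is placed in that class by its name. Its accession is named tpm4a in RefSeq, a gene also used by the heart (FC 1.15).

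At 5 μg/l PCP and the same age fewer of the genes passed. In 24L 9 of the 80 genes fell and none rose, where 3.65% of all genes tested fell and 3.09% rose. The 0 that rose came from the exact binomial test and was also 0 at an unadjusted p under 0.05 and with edgeR. The 9 that fell were 8 fast genes, myhz1 (FC 0.294, 0.290 to 0.299), tnnt3b (0.296), pvalb1 (0.353), pvalb3 (0.417), pvalb2 (0.431), tnni2a (0.466), myoz1b (0.477) and mybpc2b (0.495), and the cardiac gene csrp3 (0.314). The fast class had a median log2 change of -0.82, the slow class 0.03 and the cardiac class -0.20. For mylz2 and tnnt3a, FC in 24L was 0.557 and 0.566, short of the 2-fold threshold. The slow genes lay between 0.689 for myoz2a and 1.84 for mybpc1, and none passed. With an assumed BCV of 0.4, 0 genes fell in 24L. Both doses share 24C, so their FC are given side by side and no likeness between them is drawn.

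The direct comparison of 24H with 24L does not use the control library. In it 30 of the 80 genes were lower and 1 higher in 24H, where 10.3% of all genes tested were lower and 6.42% higher. The fast class held 18 of the 30, with pvalb1 at an FC of 0.0100 and mylz2 at 0.117, and the gene that was higher was mybpc1 (FC 2.77, 2.18 to 3.56). Of the fast genes 20 of 23 were lower in 24L than in 24C and lower again in 24H. That order was found in 5 of 12 slow, 7 of 12 cardiac and 0 of 13 non-muscle or smooth genes. Over all 21217 genes tested, 10707 had an FC below 1 in 24L against 24C and 10738 in 24H against 24L. How many of them had both was not counted.

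**Figure D4:**
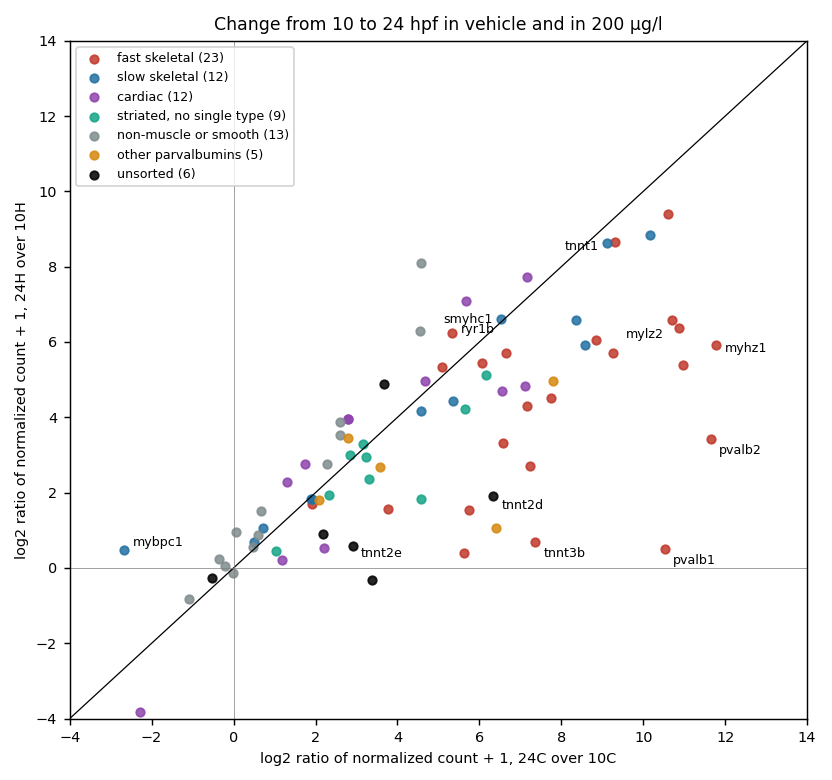
Change from 10 to 24 hpf of each of the 80 genes in the vehicle (horizontal, log2 ratio of normalized count plus 1, 24C over 10C) and in 200 μg/l PCP (vertical, 24H over 10H), coloured by class, with the diagonal of equal change. Most fast genes lie below the diagonal, with pvalb1, tnnt3b and pvalb2 far below, and smyhc1 and tnnt1 lie close to it.

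Set against the 10 hpf library of the same dose, most fast genes were still higher at 24 hpf in 200 μg/l PCP. The median ratio over the 23 fast genes, with 1 added to each normalized count, was 164 for 24C over 10C, 173 for 24L over 10L and 40.6 for 24H over 10H, and in 24H 20 of the 23 exceeded 2-fold. The other 3 were tnni2a, pvalb1 and tnnt3b, which in 24H were at 1.31, 1.42 and 1.62 times their level in 10H. For pvalb1 the ratio depends on the 10 hpf library used. Its count of 104 in 24H stands beside 73.6 in 10H but 18.9 in 10C and 13.3 in 10L. Over all 21217 genes tested the median ratio was 1.02 for 24C over 10C, 1.06 for 24L over 10L and 1 for 24H over 10H. Of those genes 6316 exceeded 2-fold for 24H over 10H. Over the 12 slow genes the median ratio was 31.4 in the vehicle and 19.6 in 200 μg/l PCP. Across the 80 genes, the log2 ratio of 24L over 10L and that of 24H over 24C, which share no library, had a Pearson r of -0.63 and a Spearman rho of -0.65. Within the 23 fast genes alone they were -0.38 and -0.34, and within the 12 slow genes -0.77 and -0.68. The relation over all genes tested was not computed. This describes these genes, which are not independent of each other and were measured in the same libraries.

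At 10 hpf, before muscle fibres form, the largest normalized count of any fast gene was 1101, that of tnni2a in 10H, and several calls rested on few reads. An average of at least 10 reads was reached by 66 of the 80 genes in each of the comparisons at this age. In 10L 6 genes rose and 3 fell, where 3.09% of all genes tested rose and 1.89% fell. In 10H 7 rose and 10 fell, where 6.08% rose and 5.66% fell. With an assumed BCV of 0.4, 0 genes rose or fell in either dose. Both doses share 10C.

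The fast gene mybpc2b was far higher in 10L than in either other library of this age, with 24.1 in 10C, 248 in 10L and 15.8 in 10H (FC in 10L 10.3, 6.70 to 16.5, adjusted p 8.53e-47 by the exact binomial test). The titin genes rose in 10L, with ttna at 588 in 10C, 1252 in 10L and 614 in 10H (FC 2.13) and ttnb at 1082 in 10C, 2368 in 10L and 1501 in 10H (FC 2.19). In both, 10L stood above 10C and 10H. The csrp3 gene was low in 10L alone, at 229 in 10C, 26.5 in 10L and 210.2 in 10H (FC 0.116, 0.0764 to 0.170). The entry ryr2 had 15 reads in 10C and 1 in 10L, and its ratio of 0.0562 had a counting interval of 0.00134 to 0.365. The other calls in 10L were pvalb2, tnnt2a and the kinase gene tnni3k, which rose (FC 2.81, 2.39 and 6.74), and tnni1b, which fell (FC 0.452).

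In 10H 5 of the 23 fast genes rose, at levels far below those of 24C, and 2 fell (actn3a and tnnc2). Of all genes tested 6.08% rose and 5.66% fell. The pvalb1 count was 18.9 in 10C, 13.3 in 10L and 73.6 in 10H (FC in 10H 3.90, 2.30 to 6.95), which rests on 18 and 70 reads. The myhz1 count was 17.8 in 10C, 27.4 in 10L and 67.3 in 10H (FC 3.77, 2.18 to 6.87). Both were highest in 10H. The genes pvalb2, myhz2 and ckmb also rose (FC 3.84, 4.84 and 2.34), and so did ryr2a, at 34.6 in 10C, 47.8 in 10L and 121 in 10H (FC 3.49, 2.35 to 5.31), and tnni3k, from 2 to 26 reads (FC 13.0, 3.26 to 113). Among the 10 genes that fell was the alpha-actinin gene actn1, expressed outside muscle, at 192 in 10C, 353 in 10L and 75.7 in 10H (FC 0.394, 0.296 to 0.520). The light chain gene myl10 was at 1261 in 10C, 1458 in 10L and 516 in 10H (FC 0.409, 0.368 to 0.455) and tnnt2d at 60.9 in 10C, 51.3 in 10L and 24.2 in 10H (FC 0.397). All 3 were lowest in 10H. The other 7 were actn3a, tnnc2, myh7, myh7bb, myh7b, tnni1b and tpm4, with FC from 0.422 to 0.489. The gene myh11a had 5 reads in 10C and 0 in 10L and 10H, and was not called.

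**Figure D5:**
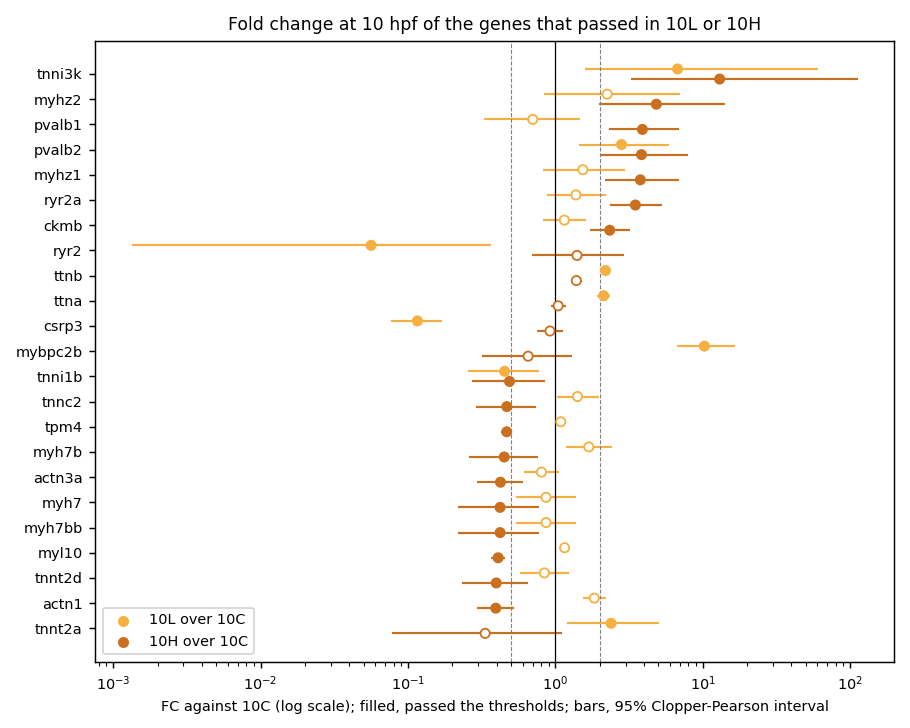
FC against 10C (log scale) of the genes that rose or fell in 10L or 10H, with bars for the 95% Clopper-Pearson interval, dashed lines at 2-fold and filled points where the thresholds were passed. The bars are wide for tnni3k, ryr2, myhz2 and tnnt2a, which had few reads at 10 hpf, and narrow for ttna, ttnb, tpm4 and myl10.

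Other genes that muscle needs for contraction, energy and assembly were listed separately, and 69 of them were matched in the table. In 24H 23 of the 69 fell and 11 rose, where 16.0% of all genes tested fell and 11.7% rose. In 24L 3 fell and 4 rose, where 3.65% fell and 3.09% rose. At 10 hpf the list went the other way from the fast genes that rose in 10H. In 10H 11 of the 69 fell and 2 rose (xirp1 and atp2a1l), where 5.66% of all genes tested fell and 6.08% rose. In 10L 1 fell and 10 rose, where 1.89% fell and 3.09% rose. The actin gene acta1a was at 328 in 10C, 1084 in 10L and 32.6 in 10H (FC in 10H 0.0992). These 10 hpf calls were not tried with an assumed BCV. Of 4 sarcomeric actin genes 2 fell, actc1b at 101881 in 24C, 89939 in 24L and 40635 in 24H (FC 0.399) and acta1b (FC 0.292). Of 19 genes of calcium uptake and coupling 6 fell, among them atp2a1, the calcium pump of fast fibres, at 50463 in 24C, 33201 in 24L and 11519 in 24H (FC 0.228), and the voltage sensor gene cacna1sa (FC 0.0948). The 3 lowest FC belonged to the calpain gene capn3 (0.0161) and the muscle phosphofructokinase genes pfkmb (0.0526) and pfkma (0.0671). Of 22 genes of the Z-disc and costamere, the attachment of the sarcomere to the membrane, 7 fell, capn3 among them, and 5 rose. The 3 highest FC of the whole list were in this group as well. They were xirp1 at 651 in 24C, 2742 in 24L and 5674 in 24H (FC 8.71), the filamin C gene flncb at 1432 in 24C, 3629 in 24L and 12067 in 24H (FC 8.42) and fhla (FC 5.31). Among the 24 hpf libraries, these genes were thus highest in the one in which the fast myosin genes were lowest.

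A list of 30 genes held markers of other tissues and of developmental stage and the myogenic factors. Of these 13 fell and 9 rose in 24H, where 16.0% of all genes tested fell and 11.7% rose. The 4 markers of presomitic mesoderm, the tissue that forms somites, all rose, with a summed normalized count of 857 in 24C, 1690.2 in 24L and 9088 in 24H, against 27784 in 10C. The myogenic factor genes myod1, myf5 and myog rose (FC 3.87, 12.5 and 18.5) and myf6, with 78 reads in 24C, did not (FC 0.816). The summed count of the 4 factors was 1538 in 24C, 2833 in 24L and 11293 in 24H. All 4 red blood cell markers, all 3 lens markers and 5 of 6 neuron markers fell in 24H, with sums of 447153, 12387 and 9977 in 24C and 30414, 195 and 3829 in 24H. Of the lens markers crygm2d3 had 0 reads in 24H. Of the 3 epidermis markers krt5 rose (FC 5.28), while krt4 and cyt1 did not pass (FC 1.82 and 1.56). Of the 3 notochord markers ntla rose (FC 3.43), while col2a1a and shha did not pass (FC 1.28 and 1.04). Of the 3 heart markers outside the name rule nppa fell, while vmhc and cmlc1 did not pass (FC 0.886 and 0.540). The part of these markers in the values of the muscle genes was not tested.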

How the data were processed

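Total RNA of pooled whole embryos was sequenced on an Illumina platform. The authors mapped the reads with Tophat and annotated them further by BLAST against the human genome. The build is Zv10 in the study's methods and Zv9 in the labels, so no coordinate is given here. The authors deposited 1 table of normalized signal, a normalized count per gene and library. Every value was a whole multiple of 1 step per library (tolerance 0.001), and division by that step gave back the reads (100% of values whole). The methods name TMM, but the steps equal inverse median-of-ratios size factors of these reads, with a largest relative gap of 3e-15. The value of 1 read was between 0.862 and 1.07.

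Reads were compared between 2 libraries with a two-sided exact binomial test given the steps, since the paper's DEGseq test was not used here (Python 3.11.15, scipy 1.17.1). P-values were Benjamini-Hochberg adjusted over 21217 genes, after 11 entries that merge transcripts named by clone had been left out. These held 13.9% to 15.5% of the reads. The test was tried on simulated data. Alternatives were library totals, TMM (edgeR 4.0.16), other thresholds, and edgeR's exact test with an assumed biological coefficient of variation (BCV). Gene names were matched to RefSeq (assembly GRCz12tu) for 74 of the 80 genes. Accessions were missing for tnni2a, tnni2b and myl12.

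Genes named with values in every library were chosen by class, role, level and FC rules, together with all muscle parvalbumins, ryanodine receptors and calsequestrins and those that rose at 1 age and fell at the other under 1 dose. Other names were added after their values were seen. The members and lists were chosen with earlier results of these data known.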

Additional observations from a re-analysis of the deposited data

Results flagged for a closer look

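Genes called in opposite directions at 10 and 24 hpf under the same dose were singled out. There were 7 such cases in 6 genes, all of fast muscle. In each the difference between the ages was not tested, since each age had 1 library per group. The share of such cases over all genes tested was not counted. With an assumed BCV of 0.4 no member rose in 10L or 10H, so none of these cases was then called at both ages. A case needs a call at 24 hpf. Fast genes were 20 of the 32 members that fell in 24H and 8 of the 9 in 24L. In 5 μg/l PCP, mybpc2b had an FC of 10.3 at 10 hpf and 0.495 at 24 hpf, and pvalb2 had 2.81 and 0.431. In 200 μg/l PCP, pvalb2 had an FC of 3.84 at 10 hpf and 0.0121 at 24 hpf. In the same dose pvalb1 had 3.90 and 0.00354, myhz1 had 3.77 and 0.0621, myhz2 had 4.84 and 0.0914, and ckmb had 2.34 and 0.198. The values at 10 hpf rested on fewer reads than those of the control at 24 hpf, with 6 in 10C and 29 in 10H for myhz2 and 23 in 10C and 280 in 10L for mybpc2b.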

How the results depend on the processing

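No paired analysis was possible because each group had 1 library. In 24H against 24C no class median or named FC of the muscle genes changed direction under the alternatives tried. For the class medians these were other added counts and a higher minimum of reads, and not the scaling or the BCV. For the other comparisons only the counts of genes were recomputed. Scaling by library totals or TMM, a minimum of 10 reads on average, 1 added to each normalized count and an unadjusted p moved no count of genes by more than 1.5 times, and leaving out 4 entries of uncertain identity (chosen after seeing the data, as was TMM) did not either. Median-of-ratios scaling equals the deposited scaling by construction. The median log2 change of all genes with at least 10 reads on average moved with the scaling and changed sign in some cases. In 10L it was -0.02, 0.11 with library totals and 0.02 with TMM. In 10H it was 0.02 and -0.01 with TMM, in 24H -0.03 and 0.01 with TMM, and in 24C against 10C 0.07 and 0.13 with library totals. With more than 2-fold and no test, 11 genes were lower in 10L, against 3. With more than 4-fold, 2 rose in 10L, 2 rose and 0 fell in 10H, 0 fell in 24L, 1 rose in 24H and 11 of the other muscle genes fell in 24H, against 6, 7, 10, 9, 2 and 23.

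An assumed BCV stands in for the spread between pools that these data do not hold. With a BCV of 0.2, 1 gene rose and 1 fell in 10L, 0 fell in 10H, 3 fell in 24L and 1 rose in 24H (mybpc1, with ryr2b lost). With a BCV of 0.4, 0 rose and 0 fell in 10L, 0 rose and 0 fell in 10H, 0 fell in 24L, 0 rose and 16 fell in 24H, 9 were lower in 24H than in 24L, and 5 of the other muscle genes fell. The calls at 10 hpf and in 24L therefore rest on the assumption that pools vary little. Of the 20 fast genes that fell in 24H, the count was 17 at more than 4-fold, 11 at a BCV of 0.4 and 20 under the other settings. Depth limited the genes with few reads, above all at 10 hpf.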

Other observations

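Subunits of the acetylcholine receptor of the neuromuscular junction, which were chosen here after their values had been seen, differed in 24H. The gene of the gamma subunit, which mammals use in the embryonic receptor and which the table lists as LOC100536659, was at 269.6 in 24C, 692 in 24L and 1320.2 in 24H (FC in 24H 4.90, 4.28 to 5.62). The gene of the epsilon subunit chrne, which replaces gamma in mature mammalian muscle, was at 498 in 24C, 338 in 24L and 139 in 24H (FC 0.278, 0.231 to 0.334). The alpha and beta subunit genes chrna1 and chrnb1 had FC of 0.857 and 1.55. The receptor-clustering kinase gene musk rose (FC 5.01), and the acetylcholinesterase gene ache fell (FC 0.197). The gene rapsn did not pass (FC 0.782). Of the 8 junction genes listed 2 rose and 2 fell in 24H, where 11.7% of all genes tested rose and 16.0% fell.

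Genes of sarcomere assembly were also uneven in 24H. The myosin chaperone genes unc45b and hsp90a and the kelch-like gene kbtbd10b (klhl41b in RefSeq) rose, with unc45b at 2681 in 24C, 2936 in 24L and 7304 in 24H (FC 2.72), hsp90a at 13143 in 24C, 17136 in 24L and 34161 in 24H (FC 2.60) and kbtbd10b at 2338 in 24C, 3269 in 24L and 6293 in 24H (FC 2.69). The methyltransferase gene smyd1a fell, at 1509 in 24C, 997 in 24L and 292 in 24H (FC 0.194), while its copy smyd1b had an FC of 1.69. Besides the phosphofructokinases, the glycolytic gene pgam2 and the glycogen phosphorylase gene pygma fell (FC 0.128 and 0.174), and the glycolytic gene eno3 had an FC of 0.611.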
